A study of Mus musculus with 3 samples.

Results

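The genes described here encode the oxidative phosphorylation (OXPHOS) system of the mitochondrial inner membrane. Members were the genes whose symbol begins with Nduf, Uqcr, Atp5, mt-Nd, mt-Co, mt-Atp or mt-Cyt, the genes Sdha to Sdhd, and the Cox4 to Cox8 families. Of 27998 genes in the count table, 104 met this rule, 91 encoded in the nucleus and 13 in the mitochondrial genome (symbols starting mt-). By complex, the nuclear members comprised 36 subunits of complex I, 4 of complex II, 8 of complex III, 19 of complex IV and 16 of complex V, plus 8 assembly factors of complex I that share the prefix without being subunits of the finished enzyme. The mt- members comprised 7 subunits of complex I, 1 of complex III, 3 of complex IV and 2 of complex V.

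Complexes I to IV pass electrons from NADH and succinate to oxygen and, except for complex II, pump protons across the inner membrane, and complex V (ATP synthase) uses the returning protons to make ATP. Complexes I, III, IV and V are built from proteins of both genomes, so that nuclear and mitochondrial transcripts must both be made, whereas complex II is wholly nuclear. Circulating neutrophils are known for few mitochondria and for a reliance on glycolysis, and their bone marrow precursors for more mitochondria. Macrophages, lymphocytes and neurons rely on the respiratory chain to differing degrees.

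Cells came from the meninges, the membranes around the brain, of male C57BL/6J mice aged 10 to 12 weeks. Home cage (HC) mice were unstressed, and chronic social defeat (CSD) mice were defeated over 14 days and chosen as stress-susceptible by behavioural tests, urine scent marking and open field among them. Each library was a pool of 4 mice, with 2 HC libraries (HC replicate 1 and HC replicate 2, 8 mice in all) and 1 CSD library, each on its own lane of a single 10x chip. Sorted live nucleated cells were counted by unique molecular identifiers (UMIs), each a tag on 1 captured transcript. Since the CSD group was 1 pool, stress, pool and lane cannot be told apart, and tests of CSD against HC rested on the spread between 2 HC pools.

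The libraries held 9891861, 8814690 and 10206236 UMIs (values by library are given in the order HC replicate 1, then HC replicate 2, then CSD replicate 1 throughout). Barcodes with at least 500 UMIs, 174 to 4548 genes and under 8.3% of UMIs in mt- genes numbered 2599, 1702 and 2756, and 2549, 1686 and 2615 cells were left once doublets were removed. That upper limit on mt- genes took out 33, 17 and 22 barcodes, so the mt- levels below are levels under that limit. In all, 16 barcode sequences were seen in more than 1 library. Barcodes of at most 100 UMIs, which hold free RNA rather than cells, carried 7.87, 24.1 and 5.48% of the UMIs, and mt- members took 6.87, 2.66 and 4.63% of that free RNA. The cells formed 23 clusters, made without the members, of which 5 were left unnamed. The named classes were led by their own markers: Cxcr2 and Il1b stood among the 10 leading genes of the mature neutrophil-like cluster, Ltf, Camp and Ngp in the immature one, Fn1 and Vcan in the monocyte-like cluster, Mrc1 and Pf4 in the border macrophage-like cluster and P2ry12 and Tmem119 in the microglia-like cluster.

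On the mitochondrial genome, some members share bases, so that a transcript cannot always be given to 1 gene. The overlap of mt-Atp8 (chrM:7766-7969) with mt-Atp6 (chrM:7927-8607), both ATP synthase subunits read from 1 transcript, spans 43 bases. It is shown because the split of UMIs between this pair is uncertain. Positions and this sequence are from the GENCODE annotation and transcripts of GRCm38, the build that the labels name as mm10.
mt-Atp8 and mt-Atp6, chrM:7927-7969, plus strand: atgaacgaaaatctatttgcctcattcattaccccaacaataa
The overlap of mt-Nd4l (chrM:9877-10173) with mt-Nd4 (chrM:10167-11544), both complex I subunits, spans 7 bases. Of nuclear copies of mitochondrial genes and reads within the overlaps, the sources used here do not say how they were counted.

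The 91 nuclear members lay on 19 chromosomes, 3 of them on chromosome X, and all 104 members are protein coding. RefSeq (build GRCm38.p6) gave a promoter for 73 nuclear members. The window of each promoter, from 250 bases before to 50 bases after the transcription start, was searched on both strands for GCGCATGC, a core of the NRF1 site, CCGGAAG, a core of sites for ETS factors such as GABPA, and AAGATGGC, a core of the YY1 site. These factors are known for binding near genes of the respiratory chain. The NRF1 letters stood in 12 of the 73 promoters (16.4%), against 3.05% of the promoters of 27025 genes. The ETS letters stood in 17 (23.3%, against 9.93%) and the YY1 letters in 9 (12.3%, against 3.19%). At least 1 of these motifs stood in 32 (43.8%, against 14.9%). A match is a description of the letters and not a bound site.
The promoters below are examples picked among members called in comparisons between cell classes, and each holds a match. Ndufa11 and Atp5l went in opposite directions between immature and mature neutrophil-like cells. Atp5g2 and Ndufb7 did so between monocyte-like and neutrophil-like cells relative to other genes. The members called that differed most in each direction were others, Ndufa1 and Ndufa7 in the former comparison and Ndufb5 and Ndufv3 in the latter. Their promoters were searched and held no match. Only the 250 bases before the start are printed. Capitals mark the matches in them, read 5' to 3' on the strand of the gene. In Ndufa11 and Atp5g2, capitals span 10 bases because the NRF1 letters match on both strands with an overlap. In the printed bases Atp5l held an NRF1 and an ETS match, beside a further ETS match after the start, and Ndufb7 held an ETS match.
Ndufa11, chr17:56717512-56717761, plus strand: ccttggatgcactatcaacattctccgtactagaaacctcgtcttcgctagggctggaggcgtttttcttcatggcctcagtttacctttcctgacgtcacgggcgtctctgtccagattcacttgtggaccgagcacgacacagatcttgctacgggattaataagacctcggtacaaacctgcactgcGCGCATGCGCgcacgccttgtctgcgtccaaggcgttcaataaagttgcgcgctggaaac
Atp5l, chr9:44920743-44920992, minus strand: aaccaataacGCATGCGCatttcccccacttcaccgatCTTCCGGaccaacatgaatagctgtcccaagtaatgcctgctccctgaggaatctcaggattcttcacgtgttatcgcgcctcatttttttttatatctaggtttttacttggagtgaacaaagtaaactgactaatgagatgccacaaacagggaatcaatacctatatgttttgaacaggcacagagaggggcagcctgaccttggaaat
Atp5g2, chr15:102671048-102671297, minus strand: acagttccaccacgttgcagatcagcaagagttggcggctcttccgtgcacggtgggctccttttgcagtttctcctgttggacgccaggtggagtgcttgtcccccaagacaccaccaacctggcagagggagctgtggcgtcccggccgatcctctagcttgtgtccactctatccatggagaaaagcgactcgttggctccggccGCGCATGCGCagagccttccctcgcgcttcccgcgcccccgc
Ndufb7, chr8:83566508-83566757, plus strand: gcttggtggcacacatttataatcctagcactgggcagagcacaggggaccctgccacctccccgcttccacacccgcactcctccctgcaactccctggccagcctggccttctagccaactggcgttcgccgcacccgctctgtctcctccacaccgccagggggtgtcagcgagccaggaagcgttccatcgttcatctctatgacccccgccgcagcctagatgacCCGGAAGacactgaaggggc
Between the neutrophil-like classes described below, members called lower had any of the 3 motifs in 14 of 36 promoters, members called higher in 2 of 5 and members not called in 12 of 18.

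Mature neutrophil-like cells had the lowest OXPHOS share of 15 classes for both genomes, and olfactory neuron-like cells the highest. Nuclear members took 1.74, 1.63 and 1.45% of the UMIs of mature neutrophil-like cells (mean 1.61% ± 0.147, SD, n = 3 libraries) and between 4.04 and 4.47% in olfactory neuron-like cells (mean 4.31%). The mt- members took 0.751, 0.749 and 0.53% in mature neutrophil-like cells (mean 0.677% ± 0.127, SD, n = 3 libraries) and 3.4% on average in olfactory neuron-like cells. The libraries of these classes did not overlap in either share. Levels are shares of all UMIs of the class in a library, and a lower share can reflect fewer transcripts of the members or more of other genes, which these shares cannot tell apart.

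From the top, the mean nuclear share was 3.47% in cluster 16 (led by Prtn3 and Ctsg, granule genes of neutrophil and monocyte precursors), 3.34% in pro-B-like cells, 3.24% in cluster 11 (Fabp4 and Cldn5) and 3.06% in monocyte-like cells. It was 2.72% in cluster 7 (Vpreb3, Ebf1 and Rag1), 2.59% in NK-like, 2.45% in cluster 9 (Cd209a and MHC class II genes), 2.36% in T-like, 2.15% in mature B-like, 2.13% in cluster 15 (Fcnb, Cebpe and Camp), 2.03% in border macrophage-like, 1.79% in immature neutrophil-like and 1.75% in microglia-like cells. Of 14 pairs of neighbours in this order, 10 had overlapping libraries. The mean mt- share went from 3.34% in cluster 11, 2.93% in cluster 7 and 2.92% in mature B-like cells, through 2.45% in pro-B-like, 2.22% in T-like, 2.06% in monocyte-like, 2.02% in border macrophage-like and 1.67% in microglia-like cells, to 1.12% in cluster 15 and 0.85% in immature neutrophil-like cells. In this order 8 of 14 pairs of neighbours overlapped. Classes with a higher nuclear share tended to have a higher mt- share (Pearson r = 0.727 and Spearman rho = 0.775 across 15 classes). Both shares come from the same libraries and denominators, so this is a description only.

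The ratio of mt- to nuclear UMIs, which does not depend on the other genes, was above 1 in mature B-like cells, and its mean was under 0.5 in both neutrophil-like classes. It was 1.36 in mature B-like cells (1.31 to 1.44 over the libraries), 1.08 in cluster 7, 1.05 in cluster 11, 0.99 in border macrophage-like, 0.953 in microglia-like, 0.942 in T-like and 0.675 in monocyte-like cells. In immature neutrophil-like cells the ratio was 0.501, 0.524 and 0.396, and in mature neutrophil-like cells 0.432, 0.458 and 0.365. In both, the CSD library was the lowest. It was also the lowest in cluster 15 (0.562, 0.521 and 0.4895) and in monocyte-like cells (0.703, 0.695 and 0.626). The same held in clusters 16 and 9 and in pro-B-like, T-like, olfactory neuron-like and preneutrophil-like cells. It did not hold in NK-like, border macrophage-like, microglia-like or mature B-like cells or in clusters 7 and 11. The ratio in microglia-like cells lay above that in immature neutrophil-like cells in every library, but free RNA was estimated at 58.7, 28.1 and 55.6% of microglia-like UMIs, and its part in the ratio was not tested. Mature B-like and pro-B-like cells went in opposite orders, since pro-B-like cells had the higher nuclear share and mature B-like cells the higher mt- share.

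**Figure D1:**
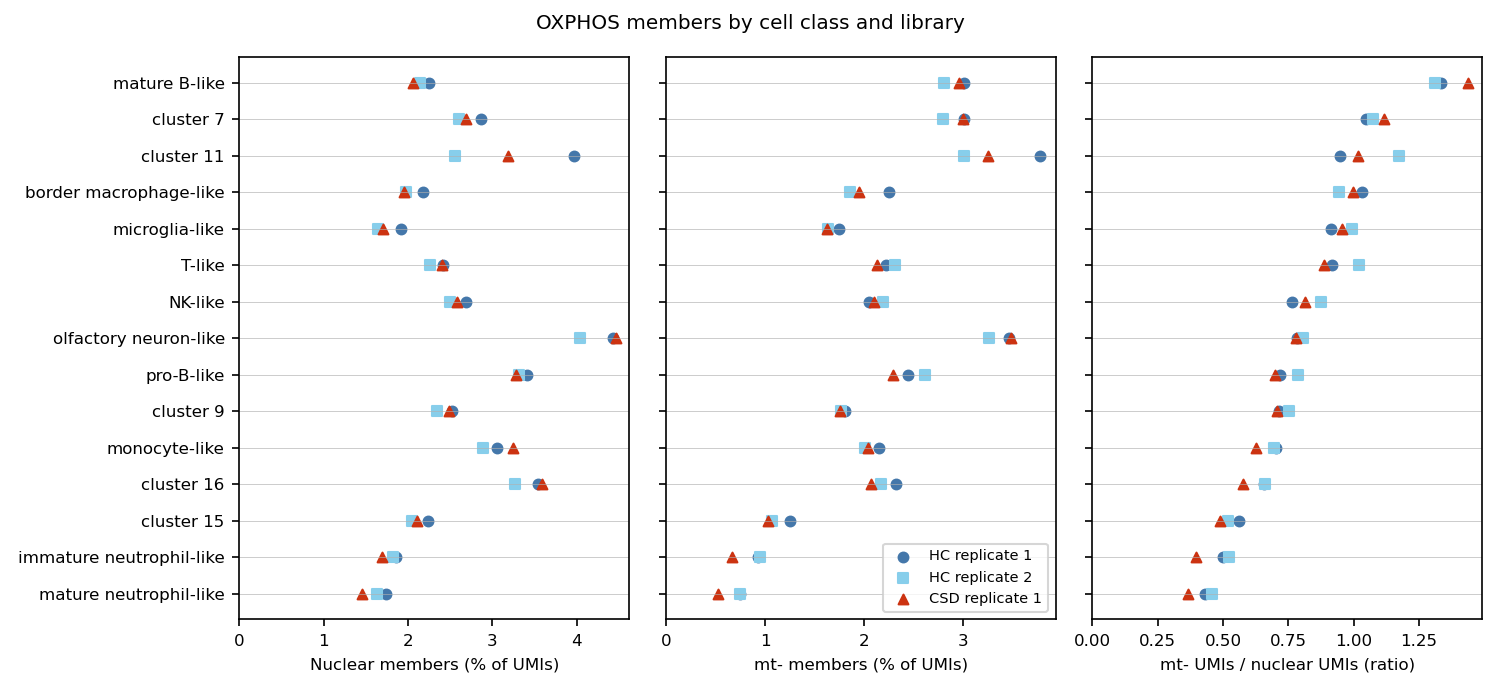
Share of UMIs in nuclear members (left, %), share in mt- members (middle, %) and their ratio (right) for 15 cell classes, 1 point a library. Mature neutrophil-like cells sit lowest in all 3 panels, with mean shares of 1.61 and 0.677%. The CSD library is the lowest point of both neutrophil-like classes in each panel. In the right panel it is also the lowest point of other classes, cluster 15 and monocyte-like cells among them.

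In the classes that carry granule genes of the neutrophil lineage, the OXPHOS share was high in the precursors and low in the mature cells. Preneutrophil-like cells, of which the libraries held only 33, 17 and 31 and which were therefore left out of the order and the tests, had nuclear shares of 3.24, 2.96 and 3.23% and mt- shares of 2.22, 2.36 and 2.2%. In cluster 15 the mt- share ran from 1.03 to 1.26%, in immature neutrophil-like cells from 0.668 to 0.951% and in mature neutrophil-like cells from 0.53 to 0.751%. The mean ratio of mt- to nuclear UMIs was 0.723 in preneutrophil-like cells, 0.524 in cluster 15, 0.474 in immature and 0.418 in mature neutrophil-like cells. Free RNA was estimated at 30.5 to 35.1% of the UMIs of neutrophil-like cells (mature and immature clusters together). With that share of the free-RNA profile taken away the mt- share of these cells was 0, 0.111 and 0%. In every library that share of the profile holds more mt- UMIs than these cells held in all (0.862, 0.876 and 0.615% of UMIs). A value of 0 is therefore the floor of the subtraction and not a measured level. What part of the mt- UMIs in neutrophil-like cells came from free RNA was not measured beyond this estimate.

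Abundant transcripts of other genes took more of the neutrophil-like libraries than of the monocyte-like ones. The 10 most abundant genes outside the members held 45.8, 43.5 and 48.1% of neutrophil-like UMIs, against 14.1, 13.6 and 13.8% of monocyte-like UMIs. Outside those genes, nuclear members took 3.35, 3.1 and 3.08% of neutrophil-like UMIs and 3.55, 3.34 and 3.77% of monocyte-like UMIs, while mt- members took 1.59, 1.55 and 1.19% against 2.5, 2.32 and 2.36%. On that base the nuclear shares of the classes overlapped, the highest neutrophil-like value (3.35%) lying just above the lowest monocyte-like value (3.34%), and the mt- shares did not overlap.

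Most single members followed the class totals. Among 84 nuclear members with at least 100 UMIs, 48 had their lowest mean level in mature neutrophil-like cells and 22 in microglia-like cells, and 56 had their highest in olfactory neuron-like cells, 11 in cluster 16 and 5 in cluster 11. All 13 mt- members were lowest in mature neutrophil-like cells, and were highest in cluster 11 (6), olfactory neuron-like cells (6) or cluster 7 (1). UMIs were counted at the 3' end of transcripts, so that levels in CPM (UMIs of a gene scaled to equal totals) were not divided by gene length, and levels of different genes are not ranked here.

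The members that varied most between classes were mt-Nd2, mt-Nd3, Ndufaf4, mt-Nd1 and Ndufa5. The complex I subunit mt-Nd2 stood at 1174 CPM in cluster 11 and 130, 123 and 77 CPM in mature neutrophil-like cells. The complex I subunit mt-Nd3 went from 472 CPM in cluster 11 to 50.7 CPM in mature neutrophil-like cells, and mt-Nd1 from 3061 to 479.5 CPM. Ndufaf4, an assembly factor of complex I, was at 119, 157 and 123 CPM in olfactory neuron-like cells and at 8.28, 5.94 and 1.61 CPM in mature neutrophil-like cells. Ndufa5, a subunit of the arm of complex I that reaches into the matrix, was at 499 CPM in olfactory neuron-like and 36.5 CPM in mature neutrophil-like cells. The members at the other end changed little, with Ndufa8, another complex I subunit, having the smallest spread over the classes (SD of log2(CPM + 10), 0.26, against 1.01 for mt-Nd2).

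**Figure D2:**
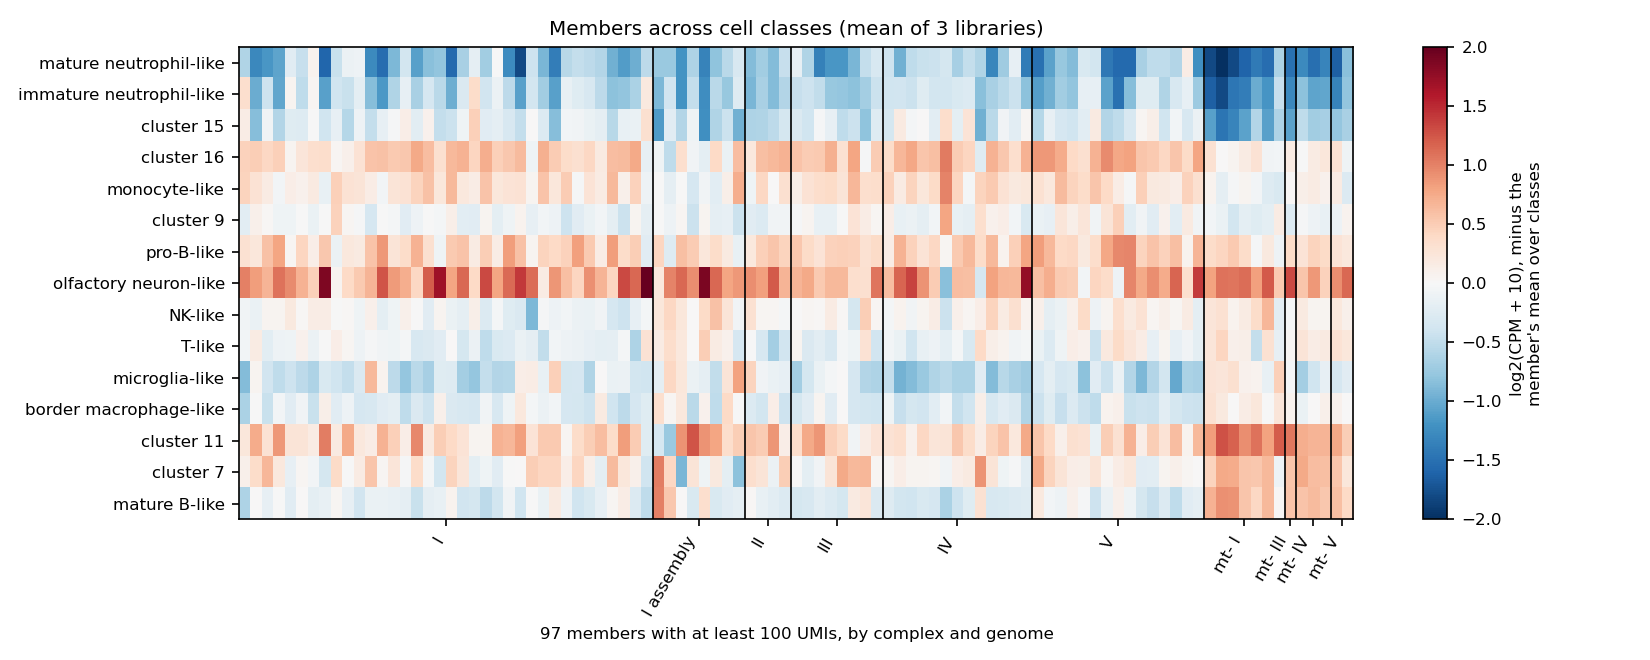
Level of 97 members (columns, grouped by complex and genome) in 15 cell classes (rows, ordered by the ratio of mt- to nuclear UMIs), as log2(CPM + 10) of the mean over 3 libraries minus the member's mean over classes. Rows of the neutrophil-like classes and cluster 15 are blue across the mt- columns on the right, and the row of olfactory neuron-like cells is red in most columns.

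Several subunits exist as a widely used form and a form known from particular tissues, and here the widely used forms held nearly all UMIs. Cox4i1 had 27972 UMIs in all cells and its partner Cox4i2, known from lung and vessels, 14, of which 9 were in cluster 11. Cox8a had 22585 UMIs and the muscle and brown fat form Cox8b 61, of which 46 (75.4%) were in cluster 11, at 165, 62.2 and 186 CPM there. No UMI was seen for Cox8c in these cells, which allows up to 3 at this depth. Cox7a2 had 12145 UMIs and the muscle form Cox7a1 50, while Cox7b2 had 1. Cox6b2, known from testis, was less rare at 779 UMIs, beside 11324 for Cox6b1, and stood at 64.8, 61.3 and 49.4 CPM in monocyte-like cells against 9.29 CPM on average in olfactory neuron-like cells. The complex IV subunit Ndufa4 had 12828 UMIs and Ndufa4l2, known as a hypoxia-induced relative, 50, with 19 in fibroblast-like cells. Atp5g1, Atp5g2 and Atp5g3 encode the same mature c subunit of ATP synthase, and had 6652, 7473 and 3047 UMIs. Reads shared by these paralogs could be split or lost in counting, which the sources used here do not describe.

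Olfactory neuron-like cells, whose axons reach the brain through the skull base, stood out for single nuclear members. Ndufa4 was at 1811, 1678 and 2004 CPM there and at 206, 208 and 174 CPM in mature neutrophil-like cells, with monocyte-like cells between them (586 to 696 CPM). Ndufv3, a complex I subunit with tissue-specific splice forms, was at 1370, 1002 and 1331 CPM, against 160 to 280 CPM in monocyte-like cells. In neither gene did the olfactory neuron-like libraries overlap those of the other classes named. Sdhb, the iron-sulfur subunit of complex II and its member with the most UMIs, was at 369, 341 and 378 CPM in olfactory neuron-like cells, 233, 266 and 310 CPM in monocyte-like cells and 91.1, 142 and 127 CPM in mature neutrophil-like cells.

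The make-up of the mt- transcripts differed between classes as well as their sum. The mt-Nd genes of complex I held 24.7, 23.2 and 26.2% of the mt- UMIs of microglia-like cells, 17.6, 17.4 and 17.4% in monocyte-like cells and 15, 14.7 and 12.6% in neutrophil-like cells. The 3 mt-Co genes of complex IV held 51.3% on average in monocyte-like cells and 57.5, 55.6 and 61.3% in neutrophil-like cells, without overlap. Within both neutrophil-like classes the CSD library had the lowest mt-Nd share, at 12.4% against 14.8 and 14.2% in the immature class and 13.1% against 15.3 and 15.9% in the mature class. The CSD library was also the lowest in cluster 15 (14.6, 14.8 and 13%), cluster 9 and NK-like, T-like and pro-B-like cells. In the remaining classes of the order it was not the lowest, and in monocyte-like cells the 3 libraries lay between 17.4 and 17.6%.

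Mature neutrophil-like cells had lower levels of most members than immature neutrophil-like cells, in both genomes. UMIs were summed per library and class, normalized by TMM and tested by edgeR with quasi-likelihood fits, with library as a block (3 libraries in each class, 2 residual degrees of freedom). Members with an adjusted p under 0.05 over all genes tested are termed called, higher or lower. Of 79 members tested 53 were called, 48 of them lower, where 57.6% of all 1718 genes were called in either direction, 29.7% higher and 27.9% lower. Among nuclear members, 41 of 69 were called lower and 5 higher, with a median log2 difference of -0.29, and 7 of 10 mt- members were called lower, with a median of -0.33. The median over all genes tested was 0.01.

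By complex, 21 nuclear subunits of complex I were called lower and 1 higher of 32 tested. In complex III 4 were lower and 1 higher of 8, in complex IV 7 and 2 of 12, and in complex V 9 and 1 of 15. Both complex II subunits tested were not called. Ndufa1, a small membrane subunit of complex I, was at 249, 217 and 204 CPM in immature and 124, 105 and 107 CPM in mature neutrophil-like cells, and was called lower (-1.02 on the log2 scale, SE 0.11, adjusted p = 6.86e-20). Uqcrb, the ubiquinone-binding subunit of complex III, went from 223, 229 and 205 CPM to 135, 117 and 97.9 CPM (-0.96, SE 0.11, adjusted p = 8.83e-18). For both genes every mature library lay below every immature one. Ndufc2 (-0.89), Ndufa11 (-0.85), both membrane-arm subunits of complex I, and Atp5g3 (-0.84) followed. Ndufa11, whose promoter is printed above, went from 171, 182 and 134 CPM to 121, 85.1 and 70.6 CPM.

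The members called higher were 1 or 2 of each of complexes I, III, IV and V, with Cox7a2l counted under complex IV by its symbol. Atp5l, subunit g of ATP synthase, was at 811, 801 and 722 CPM in immature and 1094, 912 and 911 CPM in mature neutrophil-like cells (+0.29, SE 0.06, adjusted p = 1.56e-05), without overlap. Cox8a went from 754, 768 and 734 CPM to 988, 932 and 794 CPM (+0.22). Ndufa7 (+0.31), Uqcr10 (+0.27) and Cox7a2l (+0.22) were also called higher. Uqcr10 libraries overlapped, with 337, 231 and 231 CPM in immature and 388, 309 and 290 CPM in mature cells.

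Among mt- members, mt-Co1, the catalytic subunit of complex IV, went from 1802, 1711 and 1616 CPM in immature to 1359, 1211 and 1181 CPM in mature cells (-0.49, SE 0.06, adjusted p = 5.84e-17), and mt-Co2 had a like difference (-0.48). The other called members, mt-Atp6 (-0.35), mt-Co3 (-0.32), mt-Nd4 (-0.26), mt-Cytb (-0.26) and mt-Nd1 (-0.25), differed less. Immature cells were deeper than mature cells (median 3295 to 3702 against 1279 to 1463 UMIs a cell), and with every cell thinned to 500 UMIs 15 members were called.

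**Figure D3:**
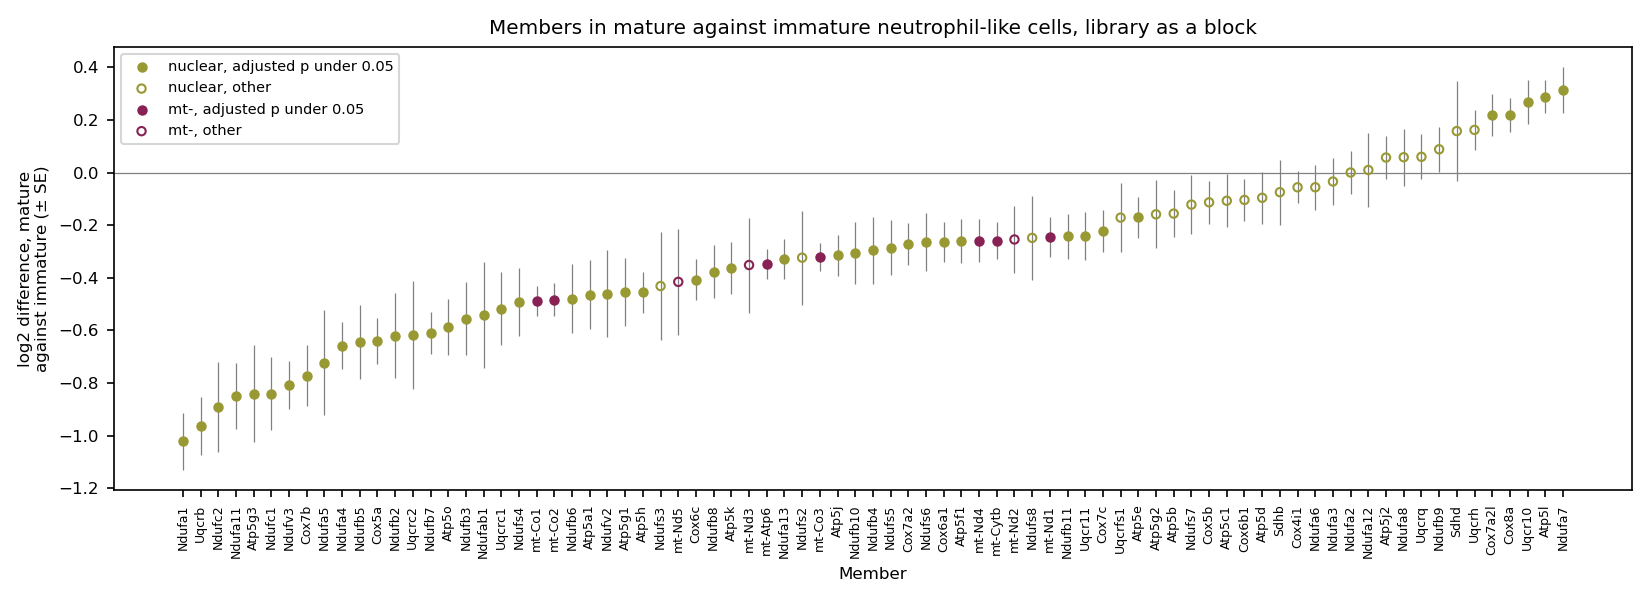
Log2 difference (TMM-normalized, ± SE) of each of 79 members between mature and immature neutrophil-like cells, sorted, over 3 libraries. Filled points have an adjusted p under 0.05, and 48 of them lie below 0 and 5 above.

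Genes around the OXPHOS system were counted in 5 lists, which hold 99 genes of the TCA cycle, glycolysis, electron carriers and inner membrane carriers, assembly factors outside the naming rule, and regulators of mitochondrial gene expression. Of the 10 tested carriers 5 were lower and 1 higher: cytochrome c (Cycs, which shuttles electrons from complex III to IV) was lower at -0.74 and Ucp2, a carrier that lowers the proton gradient or exports metabolites, higher at +0.37. Of 11 tested glycolysis genes 6 were lower and 2 higher, with the glucose transporter Slc2a3 at +0.96 and the lactate exporter Slc16a3 at +1.53, and lactate dehydrogenase (Ldha) at -0.76 and hexokinase 2 (Hk2) at -0.69. Of 3 tested TCA cycle genes 2 were lower, Mdh2 among them (-0.37). Of 7 assembly factors 2 were higher, Higd1a (+0.75) and Cox14 (+0.50), and Cox20 was lower (-0.48).

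Neutrophil-like cells (mature and immature together) had lower mt- levels than monocyte-like cells, while nuclear members went both ways relative to other genes. Of 88 members tested 60 were called, where 66.0% of all 3121 genes were called. All 11 mt- members tested were called lower, where 33.6% of all genes were lower and 32.5% higher, with a median log2 difference of -0.74. Among nuclear members, 32 of 77 were called lower and 17 higher, with a median of -0.13. TMM sets the typical gene to no change (median over all genes -0.03). With total UMIs in place of TMM, an alternative chosen after seeing the data, the median over all genes was -0.89, that of nuclear members -0.98 and that of mt- members -1.60, and 72 nuclear members were called lower and 0 higher. Thus none of the 17 nuclear members called higher under TMM was called higher with total UMIs.

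Both scalings put the mt- members below the typical gene. The mt-Nd1 level was 1813, 1733 and 1844 CPM in monocyte-like cells and 553, 584 and 302 CPM in mature neutrophil-like cells, and the TMM difference of all neutrophil-like against monocyte-like cells was -1.01 (SE 0.10, adjusted p = 5.2e-21). The mt-Nd2 difference was -1.01, that of mt-Nd3 -0.92 and that of mt-Atp6 -0.81, while mt-Co3 (-0.43), mt-Nd5 (-0.41) and mt-Co1 (-0.27) differed least. Among nuclear members Ndufb5, a membrane-arm subunit of complex I, was at 347, 375 and 347 CPM in monocyte-like cells, 107, 117 and 103 CPM in immature and 69, 67.3 and 72.2 CPM in mature neutrophil-like cells (-1.09, SE 0.12, adjusted p = 3.02e-17). Cox6b2 (-0.97) and Atp5g2 (-0.95) followed. Atp5g2, printed above, was at 353, 372 and 418 CPM in monocyte-like cells and at 127, 127 and 77 CPM in mature neutrophil-like cells.

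Members called higher relative to the typical gene were Ndufv3 (+0.90), Ndufb7 (+0.86), Ndufa3 (+0.67), Ndufa13 (+0.64) and the assembly factor Ndufaf3 (+0.59). With total UMIs the last 3 changed sign (Ndufa3 -0.20, Ndufa13 -0.22 and Ndufaf3 -0.27). In CPM, Ndufb7 was at 418, 394 and 512 in monocyte-like cells, 496, 521 and 529 in immature and 320, 378 and 347 in mature neutrophil-like cells, so that the monocyte-like libraries overlapped the immature ones and lay above the mature ones. Of the other lists, 7 of 12 TCA cycle genes were lower and 1 higher, with citrate synthase (Cs) at -1.16, Idh3b at -1.18 and Mdh2 at +0.91, and 9 of 14 carriers were lower and 1 higher. With total UMIs 11 of the 12 TCA cycle genes and 13 of the 14 carriers were lower and 0 higher in both lists. For glycolysis 8 of 12 were higher and 0 lower under TMM (Slc2a3 +4.03, Ldha +1.46, Pkm +0.81), but 3 were higher and 5 lower with total UMIs, with medians of 0.75 and -0.11. The classes were made by clustering the same cells on other genes, and correlated genes can carry that choice into these differences.

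Neutrophil-like cells were also compared with cluster 15, which carries the lineage genes Cebpe and Fcnb. This comparison was added after seeing the data, because the preneutrophil-like cells were too few. Of 88 members 34 were called, 26 lower and 8 higher in neutrophil-like cells. Of all 4022 genes 51.6% were called (24.9% lower and 26.7% higher). In neutrophil-like cells 69 members and 1181 of all genes passed the 15% limit, and the others entered through cluster 15 alone. Their part in the counts of lower members was not tested. The number called was 61 with total UMIs (59 lower and 2 higher), 18 by DESeq2 and 15 of 33 tested in cells thinned to 500 UMIs. Under TMM the calls included 23 nuclear and 3 mt- members lower, and the medians over the nuclear and mt- members tested were -0.13 and -0.21. Ndufab1, the acyl carrier protein of the mitochondrion, was at 99.2, 124 and 108 CPM in cluster 15 and at 55.5, 47.9 and 48.6 CPM in immature neutrophil-like cells, and differed most (-0.93, SE 0.16, adjusted p = 1.64e-06). Atp5g2 (-0.84), Ndufa4 (-0.82), Ndufc2 (-0.74) and Cox6b2 (-0.73) followed, and Ndufa7 (+0.59), Atp5l (+0.58), Cox7a2l (+0.55), Uqcrh (+0.50) and Ndufa13 (+0.47) were called higher. Cluster 15 was much deeper than the neutrophil-like cells, at a median of 9658 to 10760 UMIs a cell.

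In border macrophage-like cells most nuclear members called were lower than in monocyte-like cells, and 3 mt- members were called higher under TMM, while the mt- shares of the 2 classes overlapped (2.25, 1.86 and 1.94% against 2.14, 2.01 and 2.03% in monocyte-like cells). The 15% limit on either class was passed by 88 members in monocyte-like and 82 in border macrophage-like cells, and by 3063 and 1931 of all genes. Of 88 members 40 were called, where 36.9% of all 3208 genes were (17.8% lower and 19.1% higher). Of 77 nuclear members 36 were called lower and 1 higher (median log2 difference -0.37), and of 11 mt- members 3 were called higher and 0 lower (median 0.29). With total UMIs the medians were -0.59 and 0.09, with 54 nuclear members lower and 2 mt- members higher, beside a median of -0.20 over all genes. Complex IV had 9 of 13 nuclear subunits called lower and complex V 9 of 15. Atp5c1, the gamma subunit of ATP synthase, was called lower at -0.88, and Uqcrfs1, the Rieske iron-sulfur protein of complex III, differed by -0.87, Atp5f1 by -0.84 and Cox6b2 by -0.84. Ndufa1 was at 271, 186 and 267 CPM in monocyte-like and 145, 110 and 72 CPM in border macrophage-like cells (-0.92, SE 0.19, adjusted p = 1.72e-05).

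The mt- members called higher in border macrophage-like cells all belong to complex I. The mt-Nd2 level was 378, 455 and 426 CPM in monocyte-like and 620, 460 and 566 CPM in border macrophage-like cells, where every value lay above those of the monocyte-like libraries (+0.66, SE 0.14, adjusted p = 3.29e-05). The mt-Nd1 (+0.47) and mt-Nd4 (+0.34) differences were smaller, and Ndufa5 was the 1 nuclear member called higher (+0.52). With free RNA subtracted these 3 mt- differences changed sign (mt-Nd2 -0.37, mt-Nd1 -1.58 and mt-Nd4 -1.19). Glycolysis genes were lower in 5 of 11 cases, with Eno1 at -1.30 and Pkm at -1.28, and higher in 1, Hk2 (+0.94). TCA cycle genes were lower in 3 of 12, and carriers lower in 5 and higher in 2 of 14. With total UMIs 9 of the 11 glycolysis genes were lower and 1 higher, 5 of the 12 TCA cycle genes lower and 0 higher, and 8 of the 14 carriers lower and 1 higher.

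Under CSD, no member passed the test in the pooled neutrophil-like cells, and the mt- members stood below the HC libraries. There were 785, 582 and 1246 such cells. Of 69 members tested 0 were called, where edgeR called 2.29% of 1181 genes, and DESeq2 also called 0. At an unadjusted p under 0.05 there were 6 of 8 mt- members and 1 of 61 nuclear members, where 16.2% of all genes were. The median log2 difference of CSD against HC was -0.58 over the 8 mt- members, beside -0.04 between HC replicate 2 and HC replicate 1, and -0.11 over the nuclear members, beside -0.10 between the HC libraries. In 7 of 8 mt- members the CSD value lay below both HC values, where 37.4% of all genes did so. The share of mt- members was 0.862, 0.876 and 0.615% of UMIs, and that of nuclear members 1.81, 1.75 and 1.6%.

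Values of single mt- members in this test are CPM of the tested genes after TMM. The cytochrome b gene mt-Cytb, the core of complex III, was at 811, 794 and 499 (-0.69, SE 0.17, adjusted p = 0.0544). The complex I subunit mt-Nd1 was at 701, 649 and 419 (-0.69, SE 0.17, adjusted p = 0.0575), mt-Nd2 at 157, 159 and 99.9 (-0.66, adjusted p = 0.0985) and mt-Nd4 at 464, 451 and 295 (-0.63, adjusted p = 0.0696). The HC values of each lay close together and the CSD value apart. The complex IV and V members differed less. For mt-Co3 the values were 2744, 2441 and 1810 (-0.52, adjusted p = 0.14), for mt-Atp6 1938, 2009 and 1390 (-0.51, adjusted p = 0.144) and for mt-Co2 1137, 1182 and 936 (-0.31, adjusted p = 0.369). The mt-Co1 value of 1712 in the CSD library lay between 1908 and 1652 in the HC libraries (-0.06).

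The nuclear members with the largest positive difference were Ndufa8, at 163.5, 155 and 216 (+0.44, SE 0.15, adjusted p = 0.201), Atp5f1 (+0.17), Ndufb3 (+0.15), Ndufb9 (+0.13) and Ndufs4 (+0.11), none of them called. For Ndufa8, a subunit of complex I in the intermembrane space, the CSD value lay above both HC values. Of the other lists 0 genes were called in this comparison, with medians of 0.26 over 9 glycolysis genes tested, 0.00 over 8 carriers and -0.07 over 4 assembly factors. A single TCA cycle gene was tested (0.14), and no regulator passed the filter on genes seen in more than 15% of cells.

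Other values of the neutrophil-like cells, by library, were as follows. In single neutrophil-like cells the median mt- share was 0.744, 0.738 and 0.53%, at median depths of 1926, 1723 and 2076 UMIs, and the mature class made up 62.4, 57.2 and 62.1% of these cells. The estimated free RNA was 35.1, 33.7 and 30.5% of UMIs, lowest in the CSD library. Among 18 marker lists of other cell types, the summed level in neutrophil-like cells was below both HC libraries in 13, above in 3 and between in 2. Examples were the border macrophage list (1680, 850 and 533 CPM over 10 markers), the fibroblast list (470, 478 and 57.9 CPM over 8 markers, 1 of them at 0) and the mature B list (161, 341 and 93.2 CPM over 7 markers), while the erythroid list ran the other way (1929, 3393 and 5157 CPM over 8 markers). The mt- median of monocyte-like cells was -0.02. There the border macrophage list stood at 1694, 966.5 and 553 CPM and the fibroblast list at 496, 443 and 65.9 CPM. The mature B list stood at 161, 375 and 87.25 CPM and the erythroid list at 1846, 3449 and 5309 CPM. Free RNA was estimated at 35.1, 37 and 28.5% of their UMIs. The part of these values in the mt- difference was not tested. With free RNA subtracted the mt- median of neutrophil-like cells was 0, because the subtraction left their mt- sums at or near 0.

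Both neutrophil-like classes had the lower mt- median. In immature neutrophil-like cells 2 of 79 members were called, both lower, where 2.36% of 1697 genes were called and 1.59% lower. The complex I subunit mt-Nd3 was at 107, 78.7 and 38.1 TMM-normalized CPM (-1.30, SE 0.28, adjusted p = 0.00227) and mt-Cytb at 841, 782 and 515 (-0.66, SE 0.18, adjusted p = 0.0357). All 10 mt- members tested were lower in the CSD library than in the HC mean (median -0.55), and 9 lay below both HC libraries, where 36.5% of all genes did, with mt-Co1 (1851 between 2030 and 1772) the exception. The nuclear median was -0.03. These 2 calls were lost under a 5% limit on mt- genes, no limit, Leiden resolution 2, DESeq2 size factors, DESeq2 and free RNA subtraction, and mt-Nd3 was lower in HC replicate 2 than in HC replicate 1 in all 8 classes where it was tested (-1.23 to -0.40).

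In mature neutrophil-like cells 0 of 52 members were called by edgeR or DESeq2, where edgeR called 0.346% of 867 genes. Of these members 5 (9.62%) had an unadjusted p under 0.05, where 16.1% of all genes did. The mt- median was -0.55 over 7 members, 6 of which lay below both HC libraries, where 40.0% of all genes did. The mt-Nd1 values of 671, 668 and 364 (-0.88, SE 0.14, adjusted p = 0.182) and the mt-Cytb values of 742, 798 and 456 (-0.75, adjusted p = 0.237) were the farthest apart. With total UMIs in place of TMM 4 members were called. The nuclear median was -0.17 here, with 29 of 45 members below both HC libraries.

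**Figure D4:**
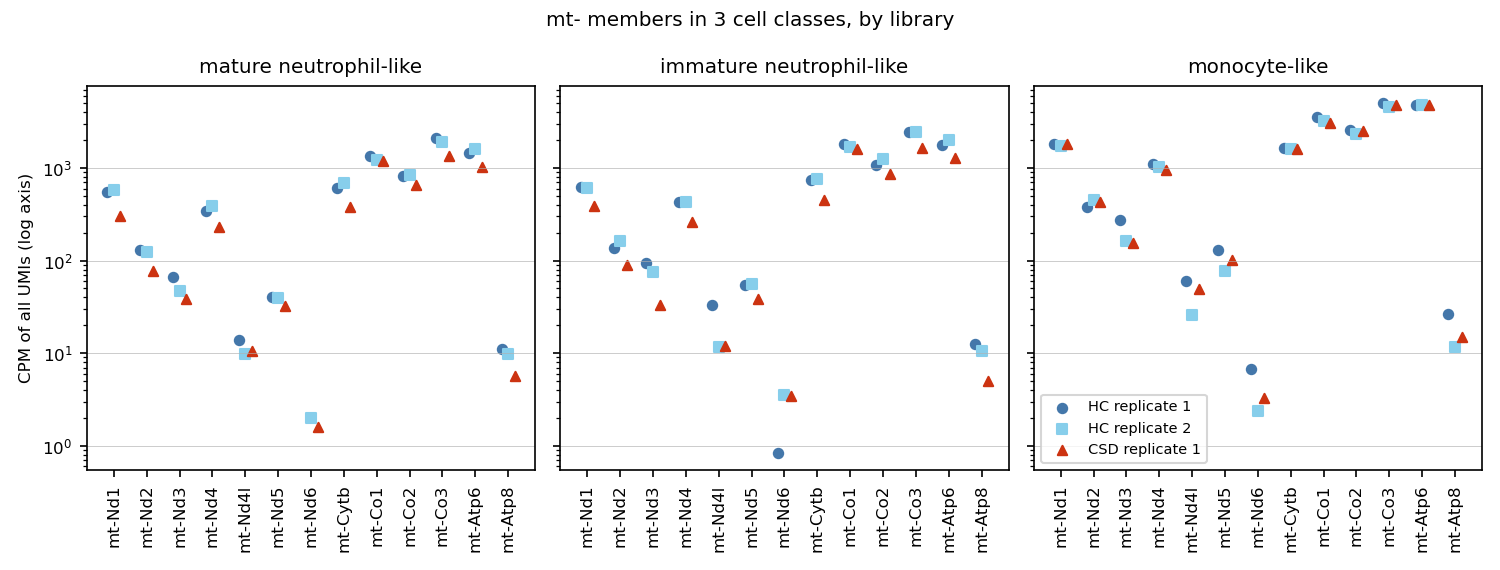
Level of the 13 mt- members (CPM of all UMIs, log axis) in mature neutrophil-like, immature neutrophil-like and monocyte-like cells, 1 point a library. The point for mt-Nd6 in mature cells of HC replicate 1 is at 0 and not drawn. In both neutrophil-like panels the CSD points lie below the HC points for most members, as for mt-Nd1 at 302 against 553 and 584 CPM, and in monocyte-like cells they lie among them.

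In monocyte-like cells the mt- members of the CSD library lay close to those of the HC libraries. Their ratio to nuclear UMIs was still lowest in the CSD library (0.703, 0.695 and 0.626). There were 100, 84 and 115 of these cells. Of 88 members 0 were called by edgeR or DESeq2, where 0.0% of 3063 genes were called, and 5 members had an unadjusted p under 0.05. The median over 11 mt- members was -0.02, with mt-Nd1 at 2033, 1836 and 2001 TMM-normalized CPM (+0.05) and mt-Cytb at 1865, 1721 and 1740 (-0.04). The CSD values lay between the HC values in 8 of these members. The nuclear median was +0.13, and 37 of 77 nuclear members lay above both HC libraries, where 34.2% of all genes did. Of the nuclear members 6.49% had an unadjusted p under 0.05, near the 6.01% of all genes that did. They were all higher, such as Atp5f1 (524, 510 and 711, +0.46, adjusted p = 0.719), Atp5o (+0.46), Ndufb8 (+0.46), Ndufs8 (+0.47) and Ndufb9 (+0.51).

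Whether CSD had another effect in neutrophil-like than in monocyte-like cells was tested as an interaction on the 6 sums with library as a block. Of 69 members 0 were called by edgeR or DESeq2, where edgeR called 0.089% of 1123 genes. At an unadjusted p under 0.05 there were 18 members, 6 of 8 mt- and 12 of 61 nuclear (19.7%), where 18.3% of all genes were. The median interaction was -0.49 over 8 mt- members and -0.24 over nuclear members. The largest mt- terms were mt-Nd1 (-0.72, SE 0.08, adjusted p = 0.159), mt-Nd2 (-0.68, adjusted p = 0.184) and mt-Cytb (-0.63, adjusted p = 0.184), and mt-Co1 had the other sign (+0.11). The number called moved between 0 and 11 over the alternatives, which is given in the closing section.

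In the other classes the mt- medians lay nearer to 0 than in the neutrophil-like cells. The nuclear medians did not all do so. Those of microglia-like and mature B-like cells lay farther from 0 than that of the pooled neutrophil-like cells (-0.11). The mt- and nuclear medians of CSD against HC were -0.12 and -0.11 in border macrophage-like, -0.04 and -0.12 in microglia-like, 0.02 and -0.15 in mature B-like, -0.08 and 0.02 in pro-B-like, 0.06 and -0.05 in cluster 7 and -0.13 and -0.03 in T-like cells. No member was called in these 6 classes by edgeR or DESeq2. In them edgeR called 0.155, 0.0576, 0.519, 0.0322, 0.0 and 0.0% of all genes. The members with an unadjusted p under 0.05 numbered 1, 0, 1, 1, 0 and 1. Of all genes 3.31, 3.92, 6.57, 5.18, 2.55 and 3.98% had such a p. Whether these classes differed from the neutrophil-like cells in their response was not tested.

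**Figure D5:**
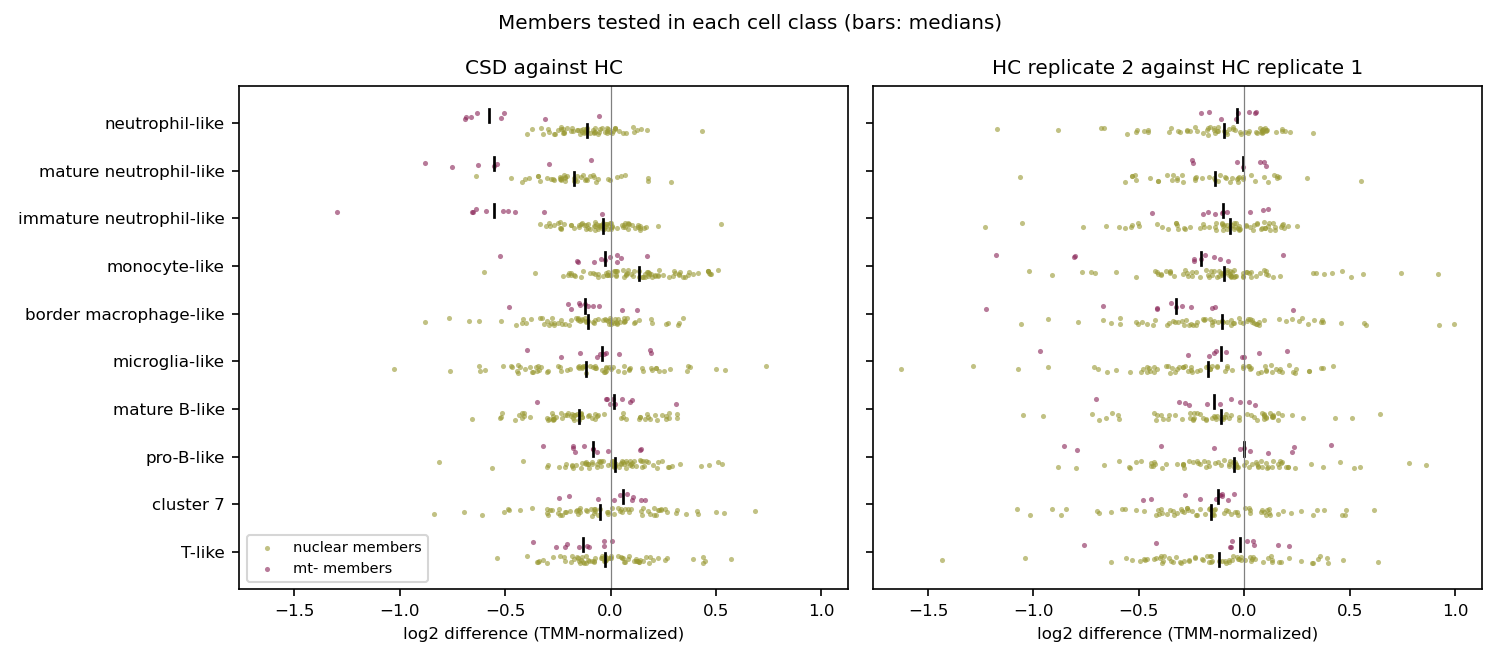
Log2 difference (TMM-normalized) of each member tested, CSD against HC (left) and HC replicate 2 against HC replicate 1 (right), in 10 rows of cell classes, of which the first pools the next 2. Black bars are medians, and those of the mt- members stand at -0.58, -0.55 and -0.55 in the neutrophil-like rows and at -0.02 in monocyte-like cells.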

How the data were processed

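The authors deposited whole-number UMI counts per gene and barcode, made with Cell Ranger 2 on mm10 per the labels, with no cells called and no normalization. Libraries were told apart by the number that ends each barcode. From these counts, doublets were marked with Scrublet (scanpy 1.11.5) per library at the threshold it chose, except in CSD replicate 1, where that threshold marked 0.109% of barcodes and the highest-scoring 5.1% were removed. Cells were clustered without members, mt- genes and listed genes, after a mutual-nearest-neighbour correction, by Leiden at resolution 1, and clusters were named from marker lists. UMIs were summed per library and class, for genes seen in more than 15% of cells of the class. In comparisons between classes the limit applied to either class, and in the interaction to both. Sums were tested two-sided with edgeR 4.0.16 (glmQLFit, glmQLFTest, TMM, in R 4.3.3) with Benjamini-Hochberg adjustment over all genes tested. CSD against HC had 1 residual degree of freedom, from the HC pools, and the lone CSD pool was assumed to vary like them. DESeq2 1.42.0 and 13 other planned settings were alternatives, 2 more were added after seeing the data. The scripts were tested on simulated data.

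The members and lists were chosen with earlier results of these data known. Genes named are those called (up to 5 in each direction), the 5 largest in each direction under CSD in neutrophil-like cells, all mt- members, leading members by complex, tissue isoforms and the 5 most variable members; others were chosen after their values were seen. The rule on members leaves out Cox6a2. Pools are the replicates. For CSD against HC the p-values rest on the spread between the HC pools. Between cell classes, with library as a block, they rest on how the class difference varied over the pools. In both, edgeR also draws the spread of a gene from all genes tested. Very small p-values therefore do not rest on the pools of that gene alone.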

Additional observations from a re-analysis of the deposited data

How the results depend on the processing

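Of 513 comparisons of a share or ratio with its value under another setting, 442 stayed within 1 SD of the libraries. Those 513 include means with 1 library left out. Such a mean cannot move by 1 SD of the same 3 libraries, so these comparisons were bound to stay and say nothing on stability. Of 426 medians 374 stayed close, and of 191 counts of members called 159 did. Of 727 values of named members 646 kept direction and call, 70 lost the call, 5 gained it and 6 changed sign. No paired analysis was possible because the labels do not link an HC pool to the CSD pool. Without an HC library no degrees of freedom were left for a test of CSD. T-like cells had no value without the mutual-nearest-neighbour correction. Causes were not tested.

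Members called in immature neutrophil-like cells under CSD (2) became 1 without doublet removal, without the mutual-nearest-neighbour correction and with a minimum of 20 UMIs, and 0 with a 5% mt- limit, no mt- limit, Leiden resolution 2, free RNA subtracted, DESeq2 size factors and DESeq2. In all neutrophil-like cells (0) they became 3 with no mt- limit and with a minimum of 20 UMIs, and in the mature class (0) 4 with total UMIs. The interaction (0) called 2 without doublet removal (beside 7 of all 1122 genes), 6 with a 5% mt- limit (44 of 1117) and 11 with no limit (101 of 1114). It called 7 without the neighbour correction (54 of 1122), 4 at Leiden resolution 2 (28 of 981) and 1 in thinned cells (10 of 263). With total UMIs it called 9 (78 of 1123) and with a minimum of 20 UMIs 5 (59 of 8833). All members so called were lower and most were mt-, for example 7 of 8 mt- members tested with no limit. Mature against immature (53) gave 15 in thinned cells, 28 by DESeq2 and 38 to 48 leaving out 1 library. Neutrophil-like against monocyte-like (60) gave 25 in thinned cells and 44 to 53 leaving out 1 library. Border macrophage-like against monocyte-like (40) gave 9 in thinned cells, 15 with free RNA subtracted, 15 by DESeq2 and 19 to 33 leaving out 1 library. Neutrophil-like against cluster 15 (34) gave 15 in thinned cells, 61 with total UMIs, 18 by DESeq2 and 22 to 41 leaving out 1 library.

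With free RNA subtracted, mt- medians under CSD were 0.0 in all 3 neutrophil-like groups, 0.41 in monocyte-like, -9.80 in border macrophage-like, -9.35 in microglia-like, 0.16 in mature B-like, 0.23 in cluster 7 and -0.018 in T-like cells, and nuclear medians -0.37 in border macrophage-like and -0.55 in microglia-like cells; values near -9 are of genes set to 0. In neutrophil-like cells the same subtraction exceeded the mt- UMIs held. It left a mt- share of 0.0368% and a ratio of 0.0258 there, with a nuclear share of 1.31%. In monocyte-like cells it left a mt- share of 0.881% and a ratio of 0.274. It turned mt-Nd2 (-0.37), mt-Nd1 (-1.58) and mt-Nd4 (-1.19) in border macrophage-like against monocyte-like cells, and total UMIs turned Ndufa3 (-0.20), Ndufa13 (-0.22) and Ndufaf3 (-0.27) in neutrophil-like against monocyte-like cells. With total UMIs the mt- medians under CSD were -0.68 in neutrophil-like, -0.66 in immature and -0.63 in mature cells, and the nuclear median of immature cells -0.15. With a minimum of 20 UMIs the mt- medians were -0.51 in neutrophil-like, -0.42 in mature and -0.083 in T-like cells, and the nuclear median of neutrophil-like cells 0.017. Thinned cells gave mt- medians of -0.67 in immature neutrophil-like and -0.24 in microglia-like cells. In pro-B-like cells the mt- median was -0.28 with at least 1000 UMIs and -0.36 at Leiden resolution 2, where the nuclear median was -0.12. Leaving out each HC library gave mt- medians of -0.63 to -0.58 in neutrophil-like, -0.21 to 0.12 in border macrophage-like (0.12 without HC replicate 1) and -0.036 to 0.13 in mature B-like cells, and nuclear medians of -0.14 to 0.00017 in neutrophil-like (the higher without HC replicate 1) and -0.15 to 0.061 in microglia-like cells. Depth limits the rarest members, since 7 had under 100 UMIs over all cells.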
